A study of Rattus norvegicus with 24 samples.

Results

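The dorsal raphe libraries of this series carry library numbers that break off and resume within each rat line, and the later-numbered libraries were compared with the earlier-numbered ones. The 12 dorsal raphe libraries were taken from the 24 of the series, and each was placed by the library number in the name and header of its count table. The later class held 5 libraries, low-responder 5 and 6 and high-responder 4, 5 and 6, and the earlier class held 7, low-responder 1 to 4 and high-responder 1 to 3. The later high-responder numbers are not all adjacent: high-responder 6 is numbered apart from 4 and 5, with high-responder amygdala 5 and 6 in between. The labels do not say what the number records, so it is treated only as a number and not as a date, a dissection or a sequencing run.

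All libraries were made from poly-A RNA of the brains of 60-day-old rats, with no treatment named in the labels, from 2 lines bred for how they respond to novelty. High Responder rats explore a new environment more, and Low Responder rats less. Each line gave 6 libraries of the dorsal raphe and 6 of the amygdala. The labels give no sex and no animal identity, so p-values here rest on the spread from library to library, part of which may be technical.

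The dorsal raphe is a small nucleus on the midline of the midbrain that holds a large share of the serotonin neurons projecting to the forebrain. It lies beneath the cerebral aqueduct within the periaqueductal grey, close to fibre tracts and to the ventricular lining, so a dissected piece also holds glia, vessels, myelin and neurons that use GABA, glutamate or peptides. Poly-A sequencing of such a piece reads the summed RNA of all these cells. In such bulk tissue, fewer cells of a type and less RNA per cell cannot be told apart.

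Genes are given by Ensembl ID, because the tables do not pair IDs with symbols and 0 of 32662 IDs matched the reference gene table used here. The marker lists for serotonin neurons, other neurons, glia, vessels, ependyma, choroid plexus, blood and neighbouring brain parts therefore gave no counts. Neither the labelled tissue nor the cell content of the later and earlier libraries was checked against markers. Groups of genes were instead formed from abundance, from a run of neighbouring table lines and from the level in the amygdala.

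Totals of the 24 libraries ran from 9232983 to 20194601 counts. Later dorsal raphe libraries held 12396800 ± 3913020 counts (SD, n = 5) and earlier ones 13001200 ± 2975310 (SD, n = 7), which did not differ detectably (two-sided exact permutation within lines, p = 0.56). Any 2 dorsal raphe libraries of a line differed by more than counting noise, and the lowest chi-square over its degrees of freedom among 30 such pairs was 4.01. None was therefore counted as a duplicate.

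The 12 dorsal raphe libraries were spread along 1 main axis, and the library number followed that axis without splitting it cleanly across the lines. The first principal component held 53.3% of the variance of log2 CPM (depth-scaled counts, corrected by the trimmed mean of M-values) and the second 9.64%. Low-responder library 5 lay highest on the first component at 64.7, with high-responder libraries 4 and 5 at 48.2 and 42.3. Earlier libraries other than low-responder 2 lay between -38.0 and -19.2.

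The remaining 3 libraries were intermediate. Low-responder 6 lay at 15.1, the earlier low-responder 2 at 2.27 and the later high-responder 6 at 0.642. The classes therefore overlapped by low-responder 2 and high-responder 6, which are of different lines. Within each line the later libraries lay above the earlier ones. The mean was 34.2 ± 25.9 in later (SD, n = 5) and -24.4 ± 13.4 in earlier libraries (SD, n = 7), with an exact two-sided p of 0.00333, the smallest that the 300 reassignments within lines allow (adjusted over 11 library measures, p = 0.0122).

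Distances between whole libraries gave the same 2 exceptions, of which high-responder 6 is the later library with a number of its own. Over the 5000 most abundant genes, the later high-responder library 6 was at a root mean square log2 distance of 0.195 from the mean of the earlier libraries and 0.302 from that of the other later ones. The earlier low-responder library 2 was at 0.237 from the other earlier libraries and 0.224 from the later ones. Each of the other 10 libraries was nearer to its own class. Later libraries were also more unlike each other, with a biological coefficient of variation of 19.1% against 11.4% among earlier ones and 15.9% among the 12 amygdala libraries. The results below are given with these 2 libraries, and the values without them stand beside those that lead each part. Both were picked as exceptions in these same data, so larger differences without them follow in part from that choice and are no separate check.

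**Figure D1:**
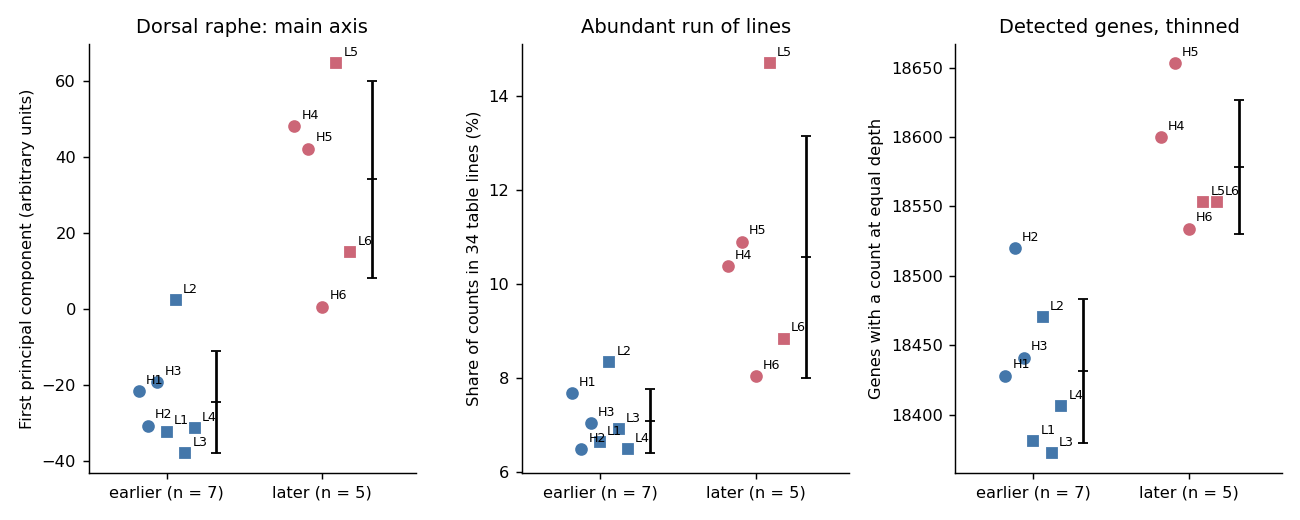
The 3 measures shown for each dorsal raphe library by class: the first principal component (left, arbitrary units), the share of counts in 34 neighbouring table lines (middle, percent) and the number of genes with a count at equal depth (right). Circles are high-responder (H) and squares low-responder (L) libraries with their number, and black bars are the class mean ± SD. On the left the later H6 at 0.642 lies below the earlier L2 at 2.27, while on the right all 5 later libraries lie above all 7 earlier ones.

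Nearly 1 in 2 expressed genes differed between the classes. With the line as a covariate, edgeR's quasi-likelihood test called 6983 of 15047 genes, 46.4%, at a Benjamini-Hochberg adjusted p under 0.05. Of these, 3514 (23.4% of the genes tested) were higher and 3469 (23.1%) lower in later libraries. Without high-responder 6 and low-responder 2 the test called 8257 genes, and 6831 of the 6983 were among them with the same sign.

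The direction of the split depended on the scaling. Relative to plain library totals, 2583 genes were higher and 4145 lower, so that 38.4% of the called genes were higher, against 50.3% with the scaling used here. The median log2 fold change of all genes moved from 0.03 to -0.04 between these scalings. Low-responder library 5 had the most weight in the count, which was 4897 without it.

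Falls were deeper than rises. The median called rise was 0.40 on the log2 scale and the median called fall -0.54. More than 1.5-fold, 790 genes rose and 1602 fell. More than 2-fold, 115 rose and 701 fell, and more than 4-fold, 12 rose and 30 fell. With plain library totals, 80 genes rose and 843 fell more than 2-fold, so the excess of deep falls was present under both scalings.

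With the scaling used here, rises outnumbered falls among the most abundant genes, and falls outnumbered rises among the least abundant. The split by abundance was not made with plain library totals, under which 2583 of all genes rose and 4145 fell. Genes were split by dorsal raphe level into 5 groups of equal size. In the most abundant group, from 74.3 CPM upward, 1040 of 3010 genes rose and 784 fell, but only 3 rose and 32 fell more than 2-fold. In the least abundant group, from 0.350 to 3.77 CPM, 298 of 3010 rose and 486 fell, of which 76 and 266 passed 2-fold. The share of genes called grew from 26% in the least to 60.6% in the most abundant group. The median standard error of the log2 fold change fell over the same groups, from 0.27 to 0.07, so smaller differences could be called in abundant genes.

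**Figure D2:**
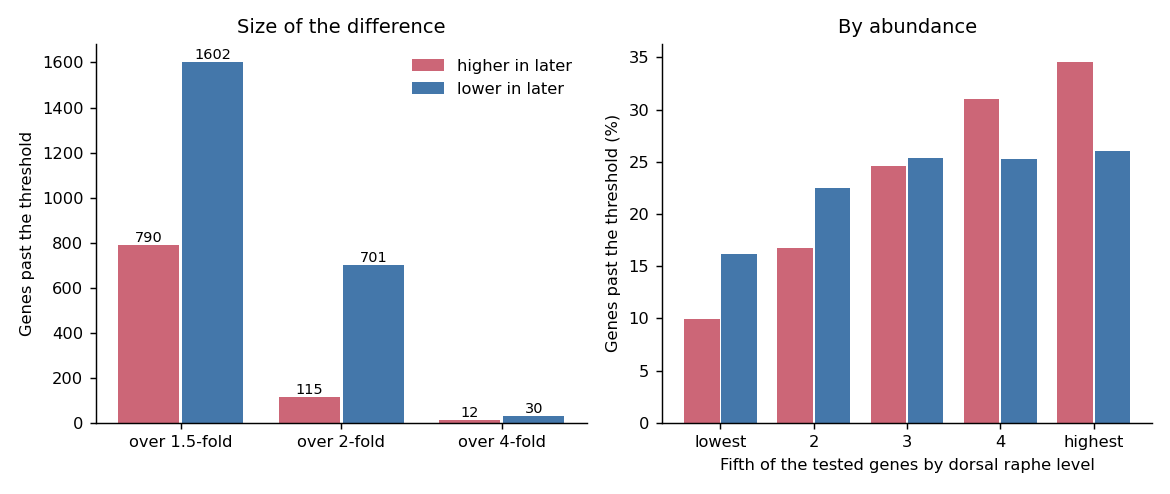
Left, number of genes past the threshold that differed by more than 1.5, 2 and 4-fold, higher (red) or lower (blue) in later libraries; right, percent of genes past the threshold in each of 5 equal groups of genes by dorsal raphe level. Falls outnumber rises at each size, with 701 against 115 beyond 2-fold, while rises outnumber falls in the most abundant group, 1040 against 784. All counts are with scaling by the trimmed mean of M-values, and the right panel was not made with plain library totals.

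Libraries of the classes did not overlap for 1658 genes, 11% of those tested, with all 5 later libraries above all 7 earlier ones for 764 (5.08%) and below them for 894 (5.94%). Scaling over all 24 libraries gave 645 and 1003. Past the threshold, without overlap and with at least 1 CPM in the higher class were 1633 genes, 753 higher and 880 lower. The 2 IDs with the deepest rise and the 2 with the deepest fall among these 1633 are described next, and all 4 are low-abundance genes. Among dorsal raphe libraries, both falling IDs reach 1 CPM in earlier ones only and both rising IDs in later ones only, so an ID at this level had to differ to be among them.

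ENSRNOG00000061763 had the deepest rise of the 1633. In later libraries it stood at 2.26, 2.24 and 0.859 CPM in high-responder 4, 5 and 6 and at 4.00 and 0.850 CPM in low-responder 5 and 6. In earlier libraries it stood at 0.0896, 0.147 and 0.298 CPM in high-responder 1, 2 and 3 and at 0.0713, 0.448, 0.439 and 0.0869 CPM in low-responder 1, 2, 3 and 4. The lowest later value was therefore above the highest earlier one, and low-responder 5, high-responder 4 and high-responder 5 lay well above the other later libraries.

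The means of ENSRNOG00000061763 were 2.04 ± 1.30 CPM in later (SD, n = 5) and 0.226 ± 0.167 CPM in earlier libraries (SD, n = 7), which makes 3.20 on the log2 scale (SE 0.49; adjusted p = 0.00234, edgeR). These levels rest on 8 to 48 counts in later and 1 to 6 counts in earlier libraries. The ID entered the test only through the later libraries: it was not tested with a filter on the line alone or with 1 CPM required in 5 libraries, and without any filter its log2 fold change was 3.18. Its amygdala level, 0.0957 to 0.634 CPM with a median of 0.268 (n = 12), covered about the range of the earlier dorsal raphe. Without high-responder 6 and low-responder 2 its log2 fold change was 3.53. It passed in high-responder libraries alone, at 3.12 (edgeR adjusted p = 0.045), and had too few counts to be tested in low-responder libraries alone.

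ENSRNOG00000051396 rose as well. It stood at 2.87, 2.46 and 0.945 CPM in high-responder 4, 5 and 6 and at 3.42 and 1.49 CPM in low-responder 5 and 6, all later. The earlier libraries held 0.717, 0.663 and 0.695 CPM in high-responder 1, 2 and 3 and 0.214, 0.717, 0.527 and 0.608 CPM in low-responder 1 to 4. High-responder 6 was thus only a little above the earlier libraries, while high-responder 4 and 5 and low-responder 5 stood apart from them.

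For ENSRNOG00000051396 the means were 2.24 ± 1.01 CPM (SD, n = 5) and 0.592 ± 0.180 CPM (SD, n = 7), a rise of 1.92 on the log2 scale (SE 0.34; adjusted p = 0.00234, edgeR). It did not pass in either line alone, at an edgeR adjusted p of 0.0503 in high-responder and 0.0616 in low-responder libraries, with log2 fold changes of 1.59 and 2.28. Without high-responder 6 and low-responder 2 the value was 2.17. This ID too was left untested by the filter on the line alone and by 1 CPM in 5 libraries, and stood at 1.90 without any filter. Amygdala libraries held 0.0926 to 1.43 CPM with a median of 0.723 (n = 12).

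ENSRNOG00000046581 had the deepest fall of the 1633. Of the later class, high-responder 4 and low-responder 5 held no count of it, and it stood at 0.224, 0.344 and 0.319 CPM in high-responder 5, high-responder 6 and low-responder 6. Earlier values were 1.70, 2.50 and 1.19 CPM in high-responder 1, 2 and 3 and 1.28, 0.628, 2.37 and 2.08 CPM in low-responder 1 to 4. The lowest earlier value, in low-responder 2, was still above the highest later one.

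Later libraries averaged 0.177 ± 0.168 CPM of ENSRNOG00000046581 (SD, n = 5) and earlier ones 1.68 ± 0.686 CPM (SD, n = 7), which makes -3.39 on the log2 scale (SE 0.60; adjusted p = 0.00234, edgeR). The later libraries held 0 to 4 counts of it. In the amygdala it was found at 0.772 to 6.16 CPM with a median of 1.495 (n = 12), in every library above all later dorsal raphe libraries. In low-responder libraries alone it did not pass (edgeR adjusted p = 0.063), at a log2 fold change of -3.39. Without high-responder 6 and low-responder 2 the value over both lines was -4.00.

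ENSRNOG00000060013 fell too, from 1.61 ± 0.695 CPM in earlier (SD, n = 7) to 0.280 ± 0.255 CPM in later libraries (SD, n = 5). Later values were 0.221, 0.112 and 0.429 CPM in high-responder 4, 5 and 6, no count in low-responder 5 and 0.637 CPM in low-responder 6. The earlier libraries held 1.61, 0.883 and 1.74 CPM in high-responder 1 to 3 and 1.21, 1.08, 2.99 and 1.74 CPM in low-responder 1 to 4. The difference was -2.48 on the log2 scale (SE 0.51; adjusted p = 0.0029, edgeR).

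Unlike the other falling ID, ENSRNOG00000060013 was low in the amygdala, at 0.077 to 0.765 CPM with a median of 0.453 (n = 12), below the 7 earlier dorsal raphe libraries. It did not pass in low-responder libraries alone, at a log2 fold change of -2.56 (edgeR adjusted p = 0.086). Without high-responder 6 and low-responder 2 the value over both lines was -2.82.

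**Figure D3:**
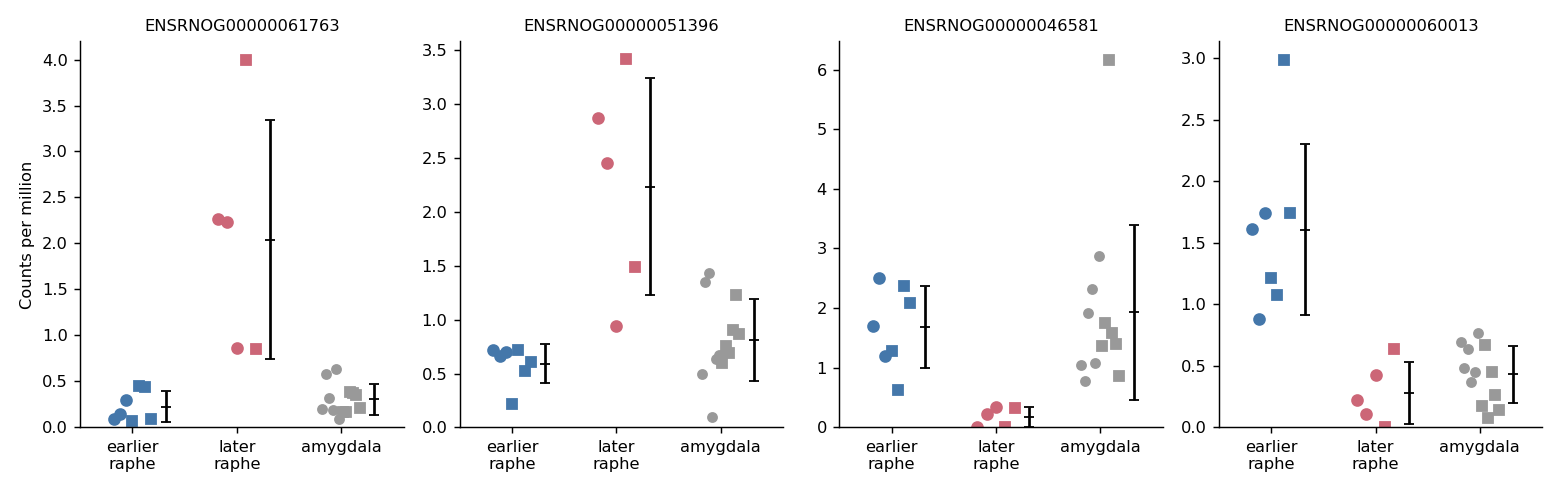
CPM of the 2 IDs with the deepest rise and the 2 with the deepest fall among the 1633 without overlap and with at least 1 CPM, in earlier dorsal raphe (blue, n = 7), later dorsal raphe (red, n = 5) and amygdala libraries (grey, n = 12). Circles are high-responder and squares low-responder libraries, and black bars are the mean ± SD. Later and earlier libraries do not overlap for any of the 4, and the amygdala lies with the earlier class for ENSRNOG00000046581 and low for ENSRNOG00000060013.

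A run of 34 neighbouring table lines, where 8 of the series' 10 most counted genes lie, took a larger share of later libraries. The share was 10.4%, 10.9% and 8.04% in high-responder 4, 5 and 6 and 14.7% and 8.83% in low-responder 5 and 6. In the earlier class it was 7.67%, 6.49% and 7.04% in high-responder 1 to 3 and 6.64%, 8.33%, 6.90% and 6.49% in low-responder 1 to 4. The classes again overlapped by high-responder 6 and low-responder 2, while within each line the later libraries lay above the earlier ones.

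The mean share was 10.6 ± 2.57% in later (SD, n = 5) and 7.08 ± 0.688% in earlier libraries (SD, n = 7), with an exact two-sided p of 0.00333, the smallest possible (adjusted over 11 measures, p = 0.0122). The difference within lines was 3.69 percentage points, 4.33 without high-responder 6 and low-responder 2, and 2.23 without low-responder 5. Of the 34 lines, 15 had enough counts for the test, and all 15 were higher in later libraries, by 0.36 to 1.02 on the log2 scale with a median of 0.64, against a median of 0.03 over all genes. Of all 15047 genes tested in the dorsal raphe, 23.4% were called higher. In the amygdala the same 15 lines had a median of 0.17 and 0 passed. There 0 of all 14964 genes tested passed, so this is not particular to these lines. Without the 34 lines edgeR called 6942 genes, 3222 higher and 3720 lower, and 6685 of the 6983 were among them with the same sign.

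More genes were detected in later libraries once depth was made equal. After random thinning to the smallest dorsal raphe total of 9232983 counts, later libraries had a count for 18600, 18653 and 18534 genes in high-responder 4, 5 and 6 and for 18553 in each of low-responder 5 and 6. Earlier libraries had 18428, 18520 and 18441 in high-responder 1 to 3 and 18381, 18470, 18372 and 18406 in low-responder 1 to 4. This was a measure in which no later library overlapped an earlier one.

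The mean was 18579 ± 48.2 genes against 18431 ± 51.9 (SD, n = 5 and 7), with an exact two-sided p of 0.00333, the smallest possible (adjusted p = 0.0122). Before thinning the numbers were 19018 ± 494 and 18952 ± 358, and no difference was detectable (exact p = 0.927). Genes found in 1 class only were few. With at least 10 counts over the other class, 3 genes had no count in any later library and 2 had none in any earlier one.

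Whether the share of the 34 lines, the number of detected genes or the content of the dissected tissue has a part in the differences of single genes was not tested.

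Genes that tell the regions apart moved unevenly between the classes. Genes with at least 1 CPM in either region were grouped by the ratio of their amygdala mean to their dorsal raphe level, where that level is the mean over both lines and both classes and so favours neither class. The same dorsal raphe libraries enter both the grouping and the comparison, so the counts are a description.

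Raphe-selective genes rarely fell. Of 169 genes at least 8-fold higher in the dorsal raphe, 36 (21.3%) were called higher in later libraries and 8 (4.73%) lower, against 23.9% and 23.7% of all 14412 genes grouped. Their median log2 fold change was 0.30, with quartiles at 0.00 and 0.72, against 0.03 over all. Among 1110 genes 2 to 8-fold higher in the dorsal raphe, 248 (22.3%) rose and 142 (12.8%) fell, with a median of 0.14. Low-responder library 5, a later one, had the most weight here: without it the median was 0.15 for the 169 genes and 0.09 for the 1110. Without high-responder 6 and low-responder 2 these medians were 0.32 and 0.16, and with plain library totals 0.22 and 0.06.

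Genes moderately higher in the amygdala moved the other way. Of 1027 genes 2 to 8-fold higher there, 87 (8.47%) rose and 406 (39.5%) fell in later dorsal raphe libraries, with a median of -0.23, and 140 of the falls passed 2-fold. Of 99 genes at least 8-fold higher in the amygdala, 7 (7.07%) rose and 22 (22.2%) fell, with a median of -0.07. Their share of falls was near the 23.7% of all genes, while their share of rises was below the 23.9% of all. That median was -0.16 without high-responder 6, -0.14 without low-responder 6 and -0.13 without high-responder 2. Leaving out both high-responder 6 and low-responder 2 gave -0.28 for the 1027 and -0.11 for the 99 genes, and plain library totals gave -0.31 and -0.15. Genes within 2-fold between the regions made up most of the calls, with 3073 of 12007 higher and 2833 lower. They were 12007 of the 14412 genes grouped and held 475 of the 654 falls beyond 2-fold, which is below their share of the genes. The 1027 genes held 140 of the 654, above theirs.

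To set groups and differences on separate dorsal raphe libraries, the groups were also formed in 1 line and the difference read in the other. A gene's level in 1 line still averages its later and earlier libraries, and the differences of the lines were alike (Pearson's r of 0.825). A rise or fall shared by the lines could thus shift the grouping, so these medians too are a description. With groups from high-responder libraries, the median difference in low-responder libraries was 0.46 for 171 genes at least 8-fold and 0.13 for 1047 genes 2 to 8-fold higher in the dorsal raphe. It was -0.23 for 946 genes 2 to 8-fold and -0.10 for 88 genes at least 8-fold higher in the amygdala, against 0.01 over 14317 genes.

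With groups from low-responder libraries, the medians in high-responder libraries were 0.14 (160 genes), 0.08 (1229), -0.23 (1080) and -0.14 (105) in the same order, against 0.02 over 14275 genes. In both directions the medians were above 0 for the raphe groups and below 0 for the amygdala groups. Of all 14275 genes, 769 were called higher and 1009 lower in high-responder libraries. Rises did not outnumber falls in the raphe groups either: 1 of the 160 genes was called higher and 5 lower, and 51 of the 1229 higher and 57 lower. In the amygdala groups 13 of the 1080 genes were called higher and 134 lower, and 2 of the 105 higher and 8 lower. Low-responder libraries alone gave no calls to set beside them.

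**Figure D4:**
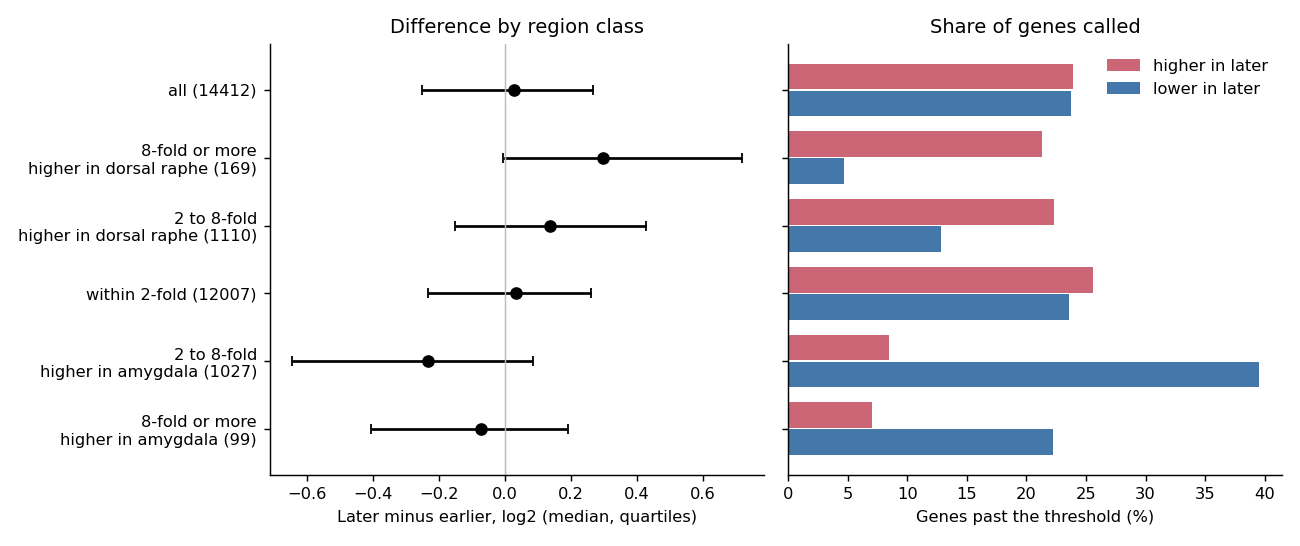
Later minus earlier difference of dorsal raphe genes grouped by their ratio between amygdala and dorsal raphe, with the number of genes in brackets. Left, median log2 difference with quartiles; right, percent of genes past the threshold, higher (red) or lower (blue) in later libraries. The genes 2 to 8-fold higher in amygdala fell in 39.5% of cases, and those at least 8-fold higher in dorsal raphe in 4.73%.

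Most of the 169 raphe-selective genes were not called in either direction. Of them 21.3% were called higher and 4.73% lower, against 23.9% and 23.7% of all genes grouped. Described here are 2 uncalled ones, which do not stand for the rest. ENSRNOG00000003476, chosen after its values were seen as an abundant gene nearly absent from the amygdala (at most 18 counts in a library there), stood at 389 ± 73.4 CPM in later (SD, n = 5) and 408 ± 187 CPM in earlier libraries (SD, n = 7). Its difference was 0.05 on the log2 scale (SE 0.39; adjusted p = 0.93, edgeR), and -0.25 without high-responder 1. The 5 later libraries ran from 303 to 466.3 CPM with a median of 396. Among earlier ones high-responder 1 stood at 58.0 CPM and the others between 340 and 616 CPM.

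ENSRNOG00000017856, chosen in the same way, had at most 2 counts in any amygdala library. It stood at 25.9 ± 6.47 CPM in later and 21.9 ± 10.1 CPM in earlier libraries (SD, n = 5 and 7), or 0.37 on the log2 scale (SE 0.34; adjusted p = 0.383, edgeR). The value was 0.13 without high-responder 1, 0.21 without high-responder 4 and 0.03 in low-responder libraries alone. Here too high-responder 1 was lowest, at 4.12 CPM against 14.8 to 36.9 CPM in the other 11. Both genes therefore varied most through this 1 earlier library, and neither separated the classes.

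The difference between later and earlier libraries recurred in the 2 lines, which share no library. In high-responder libraries alone edgeR called 1789 of 14573 genes, 12.3%, with 772 higher and 1017 lower. Of the 772, 768 were tested in low-responder libraries and 768 had the same sign there, where 51.4% of all tested genes were positive. Of the 1017, 1014 were negative in low-responder libraries, where 48.6% of all were. The median rise was 0.51 in high-responder and 0.49 in low-responder libraries, and the median fall -0.75 in both.

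Low-responder libraries alone gave 0 calls (0%) among 14705 genes with edgeR at 2 later against 4 earlier libraries, where 5411 genes had an unadjusted p under 0.05. They were not run through another tool. From these, 1014 rises and 1219 falls at an unadjusted p under 0.01 were read in high-responder libraries. There 988 of 1010 (97.8%) and 1206 of 1213 (99.4%) had the same sign, with smaller medians than in the line they were chosen in: 0.46 against 0.61 for the rises and -0.72 against -0.92 for the falls. The differences of the 2 lines had a Pearson's r of 0.825 and a Spearman's rho of 0.814 over 14429 genes, a description only, since genes are no independent replicates.

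The test of a difference between the lines called 0 of 15047 genes (0%) with edgeR and 0 with DESeq2, and 345 had an unadjusted edgeR p under 0.05. Without low-responder 6 edgeR called 6. A missing call does not show that the lines act alike. In simulated counts, 7.46% of 1.5-fold, 49.2% of 2-fold and 80.3% of 4-fold differences between the lines were recovered.

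Genes chosen in 1 line also ordered the libraries of the other. The mean log2 level of the 1017 falling genes was taken from that of the 772 rising ones in each low-responder library, and set against the mean of the 4 earlier libraries. Low-responder 5 stood at 1.82 and low-responder 6 at 0.84, and the earlier low-responder 2 stood at 0.60, close to low-responder 6. Low-responder 1, 3 and 4 lay at -0.17, -0.29 and -0.15.

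With genes chosen in low-responder libraries, high-responder 4 and 5 stood at 1.65 and 1.51 and high-responder 6 at 0.55, with high-responder 1, 2 and 3 at 0.05, -0.16 and 0.11. In each line the later libraries were the highest, and the values between were spread along a range and not at 2 levels. Amygdala libraries, set against their own mean, ran from -0.32 to 0.49 on the high-responder genes. The highest of them was the earlier high-responder amygdala library 2, and the 4 later ones lay between -0.32 and 0.12. On the low-responder genes they ran from -0.30 to 0.55. The same earlier amygdala library was at 0.551 and the later high-responder dorsal raphe 6 at 0.547. The amygdala is set against all its libraries and the dorsal raphe against earlier ones, so these values do not share a zero.

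**Figure D5:**
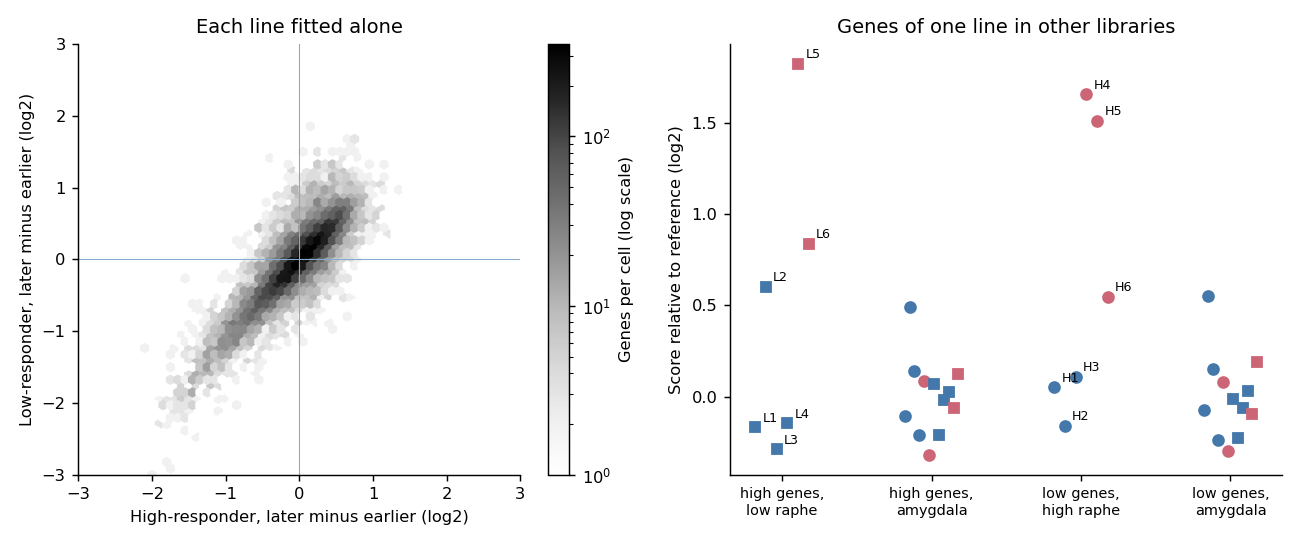
Left, later minus earlier log2 difference of each gene in high-responder (horizontal) and low-responder libraries (vertical), fitted separately, with the number of genes per cell in grey on a log scale. Right, score of each library on genes chosen in the other line, or of amygdala libraries on the same genes, for later (red) and earlier (blue) libraries, circles high-responder and squares low-responder. Low-responder 5 reaches 1.82 and high-responder 4 reaches 1.65, and the amygdala libraries on the high-responder genes stay between -0.32 and 0.49.

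The amygdala did not show a like difference. Its numbers also break within each line, with libraries 5 and 6 of both lines later, which gave 4 later and 8 earlier libraries. EdgeR called 0 of 14964 genes (0%) between them, with 573 at an unadjusted p under 0.05, and DESeq2 called 2. In simulated counts of this design, 49.25% of 1.5-fold and 79.1% of 2-fold differences were recovered, so smaller differences could be missed. The share of the 34 lines was 6.27 ± 0.222% in later (SD, n = 4) and 5.51 ± 2.13% in earlier amygdala libraries (SD, n = 8; exact p = 0.529).

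The difference between the regions was itself tested on all 24 libraries. The later minus earlier difference differed between dorsal raphe and amygdala for 3939 of 15593 genes (25.3%), higher in the dorsal raphe for 1637 and lower for 2302. The count was 2313 without low-responder dorsal raphe 5 and 2405 without high-responder amygdala 6. The later classes of the 2 regions were each set by their own break in the numbers, and the labels do not say that they were handled together.

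For the 4 IDs above the difference between regions is a description, since they were chosen for their fold in the same dorsal raphe libraries. It was 3.03 (SE 0.76) for ENSRNOG00000061763, 1.77 (SE 0.58) for ENSRNOG00000051396, -3.01 (SE 0.90) for ENSRNOG00000046581 and -2.29 (SE 0.75) for ENSRNOG00000060013. In the amygdala alone the 2 IDs that could be tested had log2 differences of 0.11 (SE 0.45) for ENSRNOG00000051396 and -0.40 (SE 0.52) for ENSRNOG00000046581, neither past the threshold.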

How the data were processed

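RNA came from a miRNeasy (Qiagen) extraction followed by poly-A library construction, per the labels' protocols. Tools named in the submitters' processing notes are Trim Galore and STAR, with genome build rn6. The counting program, strand setting, annotation and tool versions are not given in the sources used here, so copies, overlapping genes and antisense partners are uncertain. Each library has 1 deposited table of whole, unnormalized read counts, with 32662 IDs and 0 lines that name no gene. The class of a library came from its library number.

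Counts were tested in R 4.3.3 with edgeR 4.0.16 (filterByExpr on line by class, TMM, glmQLFit, glmQLFTest), with the line as covariate and Benjamini-Hochberg adjusted p under 0.05. SE was taken as the size of the log2 difference over the root of F. CPM were scaled by TMM within each region, and over all 24 libraries for the region groups, with 0.01 CPM added before ratios. Principal components used a prior count of 2, and scores log2(CPM + 0.5). Library measures were tested by exact permutation of the class within lines. Thinning was random, with a fixed seed.

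Members, lists and rules were chosen with earlier results of these data known. Rising and falling IDs had an adjusted p past the threshold, no overlap of classes and at least 1 CPM in the higher class. They were ranked by fold change, 2 each way. The 2 raphe-selective IDs were chosen outside this rule, after their values were seen. IDs closest to the first component were not printed. The lists fixed by symbol could not be applied. In tests on simulated data of the main comparison (15047 genes), 58.2%, 74.6% and 95.5% of 1.5, 2 and 4-fold changes were recovered, and 1.3% of calls were false. Each simulation changed 200 genes and drew genes independently, with the same spread in both classes. It therefore does not give the share of false calls in the real comparison, where 46.4% of genes were called. Alternatives were other scalings, filters, DESeq2 1.42.0, limma 3.58.1 voom, a fold of 1.2, thinning, lines alone and left-out libraries.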

Additional observations from a re-analysis of the deposited data

Results flagged for a closer look

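A value far from the other 5 of its group, the libraries of 1 line in 1 region, was found in 6 of the 38 groups looked at. Chance alone, at 1 group in 20, would give 1.9, and several of these measures overlap. Dorsal raphe groups mix later and earlier libraries, and the rising and falling IDs were chosen for that difference. The 1.9 is thus no fair reference for dorsal raphe groups. Low-responder dorsal raphe library 5, a later one and the highest on the main axis, had 15.2% of its counts in the 10 most counted genes. It had 14.7% in the 34 neighbouring lines and 4.00 CPM of ENSRNOG00000061763. Low-responder amygdala library 3 had the lowest share of the 34 lines, 1.62%, and 6.16 CPM of ENSRNOG00000046581. Low-responder amygdala library 2 held 1.5 CPM of ENSRNOG00000003476, above the others of its group.

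The later minus earlier difference differed between dorsal raphe and amygdala, by the test of that difference, for 3939 genes. The 4 IDs described above were chosen on the same dorsal raphe libraries, so their values are a description: ENSRNOG00000061763 differed by 3.03, ENSRNOG00000051396 by 1.77, ENSRNOG00000046581 by -3.01 and ENSRNOG00000060013 by -2.29 on the log2 scale.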

How the results depend on the processing

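The count of 6983 lay between 6341 and 8260 under other scalings, filters and tools, with thinning, without the 34 lines or the line term, and, in settings chosen after seeing the data, without high-responder 6 and low-responder 2 or with a filter on the line only. It was 2609 against a fold change of 1.2, 1789 in high-responder and 0 in low-responder libraries alone, where fewer libraries enter, and 4897 (without low-responder 5) to 7823 (without high-responder 6) with 1 library left out. The line by number count ran from 0 to 6 with 1 left out. DESeq2 called 2 amygdala genes. The region by number count ran from 2313 (without low-responder dorsal raphe 5) to 5001 (without high-responder dorsal raphe 6) with 1 left out, and was 2187 with a replicate block. Of 12 same-numbered pairs of regions, 3 had a correlation of deviations over 0.1 and 0 matched best with their own number. Correlations between 2 regions cannot show whether same-numbered libraries came from 1 animal, and the labels do not say. Later and earlier dorsal raphe libraries could not be paired with each other, because they share fewer than 2 numbers within a line. The replicate block joined same-numbered libraries of the 2 regions, without it being known that they came from 1 animal. With 1 left out, the total count difference ran from -2392290 to 273365 and that of genes detected from -158.6 to 155.04, both around 0. The share of the 10 most counted genes differed by 3.37 percentage points, but by 0.285 without the 34 lines (exact p = 0.277). ENSRNOG00000003476 was at -0.036 with library totals, -0.072 without the line term and -0.46 in low-responder libraries alone, and from -0.25 to 0.23 with 1 left out. The causes were not tested. Genes under about 1 CPM rest on few counts per library.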
